A study of Mus musculus with 4 samples.

Results

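The genes described here are 38 interferon response genes, a fixed list found by symbol among the 31053 genes of the deposited matrices; every listed gene was present. Of these, 29 are antiviral genes best known as targets of type I interferon, 8 are interferon gamma-inducible GTPases (Ifi47, Igtp, Irgm1, Iigp1, Gbp2, Gbp3, Gbp5 and Gbp7), and 1 is Irf1, a transcription factor that responds to both interferons. They were read in droplet single-cell RNA-seq of mouse pancreas, in 4 libraries of viable (DAPI-negative) sorted cells from wild-type C57BL/6 mice. The mice had received saline or caerulein, a cholecystokinin analogue that makes acinar cells release their enzymes and causes pancreatitis, and were left to recover for 2 days or for 6 weeks. The libraries are saline at 2 days (S2D), caerulein at 2 days (C2D), saline at 6 weeks (S6W) and caerulein at 6 weeks (C6W), with no engineered allele in any of them. Each group is 1 library, and the age and number of mice behind a library are not given in the sources used here. No test between conditions is therefore possible: every interval below is a 95% interval for counting error alone, and a difference between groups cannot be told apart from a difference between 2 libraries of the same group.

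Type I interferons, such as interferon beta encoded by Ifnb1, bind the receptor made of Ifnar1 and Ifnar2. The signal reaches the nucleus and acts at a DNA element called the interferon-stimulated response element (ISRE). Interferon gamma, made by T and NK cells, binds Ifngr1 and Ifngr2 and acts at another element, the gamma-activated site (GAS). The antiviral proteins block steps of viral growth or sense foreign nucleic acid, while the GTPases attack vacuoles that hold microbes. Usp18 and Socs1 restrain the signal.

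The elements can be read in the members' own promoters, which is why a few are shown here. RefSeq promoters (GRCm38.p6) of 29 members were searched over the 250 bases before the start, on both strands, for the ISRE core GAAANNGAAA (or TTTCNNTTTC) and for the GAS core TTCNNNGAA. An ISRE core was present in 8 of 21 type I antiviral genes with a promoter (38.1%) and in 6 of 7 GTPases (85.7%), against 936 of 27025 genes overall (3.46%). A GAS core was present in 3 of the 21 (14.3%), in 3 of the 7 (42.9%) and in Irf1, against 8.13% of all genes. The cores can overlap, as they do in Isg15. Each line gives 12 bases on either side of the cores, 5′ to 3′ on the gene's strand, with the cores in capitals; a match is a description of letters, not of binding.
Isg15, chr4:156200863-156200908 (minus strand), 3 overlapping ISRE cores: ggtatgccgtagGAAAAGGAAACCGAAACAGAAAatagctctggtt
Ifit1, chr19:34640773-34640825 (plus strand), 2 ISRE cores: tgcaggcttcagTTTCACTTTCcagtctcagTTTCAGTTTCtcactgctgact
Ifit3, chr19:34583361-34583428 (plus strand), 2 ISRE cores: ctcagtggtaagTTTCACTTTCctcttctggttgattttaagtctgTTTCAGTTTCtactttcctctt
Rsad2, chr12:26456551-26456584 (minus strand), 1 ISRE core: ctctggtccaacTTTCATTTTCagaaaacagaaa
Gbp7, chr3:142530218-142530304 (plus strand), 2 GAS cores and 1 ISRE core: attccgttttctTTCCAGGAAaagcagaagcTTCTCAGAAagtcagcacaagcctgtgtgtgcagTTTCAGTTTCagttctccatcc
Igtp, chr11:58199499-58199543 (plus strand), 1 GAS core and 1 ISRE core: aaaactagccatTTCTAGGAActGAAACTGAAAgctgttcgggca
Irf1, chr11:53769912-53769944 (plus strand), 1 GAS core and no ISRE core: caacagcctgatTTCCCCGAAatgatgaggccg
Isg15, Ifit1, Ifit3 and Rsad2 carried ISRE cores alone, Irf1 a GAS core alone, and the GTPases Gbp7 and Igtp both kinds. The kinds of core did not split by list: among the members not shown, the GTPases Gbp2, Gbp3 and Irgm1 carried ISRE cores alone, the type I genes Bst2 and Oas1a both kinds, and Ifit2 a GAS core alone.

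The libraries held 29145886 to 71547194 unique molecular identifiers (UMIs, 1 per captured RNA molecule) in 2623 to 5433 barcodes, and 2017 to 4637 cells per library were analysed. The caerulein library at 2 days was the deepest, with a median of 14051 UMIs per cell against 8323.5 to 10541 in the others. Between 15 and 35 barcodes per library also occurred in another library. Cells were clustered without the members, and clusters were named from marker lists, so that a class such as "macrophage-like" rests on its markers; all 17 macrophage markers, all 10 blood endothelial markers, all 12 fibroblast markers, all 14 ductal markers and all 10 T cell markers had UMIs in their own classes in each library given below. The presence of a UMI for each marker is a low bar and does not by itself tell classes apart. Plasma-like cells of C6W also had all 17 macrophage and all 12 fibroblast markers. These summed to 1322 and 747 CPM there, against 27047 CPM for the plasma markers. The make-up of the classes differed strongly: 2366 of the macrophage-like cells came from C2D against 87 from S2D, 134 from S6W and 120 from C6W. RNA of digestive enzymes outside acinar cells also differed, at a median of 158 UMIs per T- or B-like cell (S2D), 19 (C2D), 102 (S6W) and 81.5 (C6W). Levels are given as CPM, the UMIs of a gene scaled to a class total of 1000000 UMIs. A log2 ratio divides totals adjusted by the trimmed mean of M values (TMM), and a gene counts as measured with at least 10 expected UMIs in the smaller library and as higher or lower from a 2-fold difference. At 2 days 37 of the 38 members were measured in fibroblast-like, 33 in macrophage-like, 32 in ductal-like, 25 in dendritic-like, 23 in T-like, 14 in NK-like and 5 in acinar-like cells. At 6 weeks 36 were measured in fibroblast-like, 34 in macrophage-like, 26 in ductal-like, 19 in B-like, 15 in T-like and 5 in acinar-like cells. Mx1 and Ifi44 missed the minimum most often, and every member reached it somewhere.

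Across classes the interferon signature was strongest in the blood vessel cells. Summed over the 25 type I antiviral genes other than the broadly present Bst2, Ifitm3, Ifi27 and Lgals3bp, blood endothelial-like cells held 4233 CPM in S2D, 3002 in C2D and 5076 in S6W, the highest sum of any class of at least 20 cells in those 3 libraries. The 8 GTPases summed to 4686, 2906 and 4461 CPM there, while no other class passed 736 in any library. C6W held 15 such cells and S2D 48, so no ratio between conditions was taken. Macrophage-like cells came next in the saline libraries for the type I genes, fibroblast-like cells for the GTPases, and acinar-like cells were at the bottom for both, with 8.39 to 28.6 and 2.49 to 6.72 CPM.

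Iigp1, a GTPase that coats and breaks open the vacuoles of parasites, made up most of the endothelial GTPase sum. Its level was 2796 CPM in S2D (2597 to 3007), 1646 in C2D (1560 to 1734) and 2460 in S6W (2360 to 2564). All 3 libraries stood far above every fibroblast-like level, which ran from 179 to 421. Irgm1, which regulates the other GTPases and autophagy, was at 430.2, 265 and 509.8 CPM in S2D, C2D and S6W. Ifi47 was at 330.3, 192 and 361, and Igtp at 284, 227 and 258. C2D was the lowest of the 3 libraries for each of these 4 genes, although its interval for Igtp overlapped those of both saline libraries. Ifi44 and Herc6, antiviral members that were near 0 or low in most classes, reached 115 to 131 and 86.1 to 150 CPM in the endothelial cells (ranges over the 3 libraries).

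The antiviral members were high in the same cells. Isg15, a ubiquitin-like protein that is attached to other proteins, was at 949 CPM in S2D, 618 in C2D and 1322 in S6W. Ifit1, which binds foreign RNA caps, was at 446, 333 and 731 in the same order. Irf1 was at 1275, 694 and 1581, and Ifitm3, which holds viruses in endosomes, at 3837, 3734 and 3731. For Ifitm3 the 3 intervals overlapped, whereas C2D lay below both saline libraries for Isg15, Ifit1 and Irf1, for Ifit1 with an interval that touched that of S2D. After thinning each cell to 1000 UMIs, 97.7% of the S2D cells, 76.2% of the C2D cells and 87.3% of the S6W cells kept at least 1 GTPase UMI (4, 4 and 6 shallower cells were left out; the unthinned shares were 95.8%, 93.3% and 97.1%). In acinar-like cells, at the low end, the thinned share was 0.00% to 1.16%. Neither Ifnb1 nor Ifng had a UMI in the blood endothelial-like cells, which allows up to 11.5 CPM in S2D, 3.54 in C2D and 3.27 in S6W.

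Interferon genes themselves were read in few classes. Of 18 interferon genes looked up, Ifnb1 had 2506 UMIs over the named classes of at least 20 cells and Ifng 912, while the other 16 had 7 or fewer each. Ifnb1 UMIs lay mainly in macrophage-like cells, numbering 352 (S2D), 1081 (C2D), 427 (S6W) and 460 (C6W). Dendritic-like cells held 9, 44, 39 and 16. Ifng UMIs lay in T-like cells (207, 186, 105 and 83) and NK-like cells (128, 78, 50 and 48).

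Macrophage-like cells of the caerulein library at 2 days had far lower Ifnb1 than those of either saline library, and part of their antiviral genes were lower than in S2D. The Ifnb1 level was 461 CPM in S2D (414 to 512), 32.1 in C2D (30.2 to 34.0), 340.2 in S6W (309 to 374) and 325 in C6W (296 to 356). C2D stood apart from the other 3 libraries, and its log2 ratio to S2D was −3.78 (−3.95 to −3.60). At 6 weeks the log2 ratio was −0.09 (−0.28 to 0.10). The Ifnb1 UMIs were spread unevenly over the macrophage-like cells. The cell with the most held 78 of 352 UMIs in S2D and 37 of 1081 in C2D. In S6W it held 67 of 427 and in C6W 57 of 460. The intervals of the levels and ratios do not cover this unevenness between cells, so they are too narrow as a measure of certainty. An Ifnb1 UMI was found in 42.5% of cells in S2D (Clopper-Pearson interval 32.0 to 53.6), 16.1% in C2D (14.6 to 17.6), 38.1% in S6W (29.8 to 46.8) and 40.8% in C6W (32.0 to 50.2), although the C2D cells were the more deeply read. T-like and NK-like cells of the same libraries had 0 Ifnb1 UMIs.

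Of the type I antiviral genes, 25 were measured in this comparison at 2 days; 10 were lower and 0 higher, where 5.84% of all measured genes were lower and 9.89% higher. Their median log2 ratio was −0.87, and that of all measured genes 0.14. Ifit2, an RNA-binding partner of Ifit1, was at 110.0 CPM (S2D), 7.0 (C2D), 47.0 (S6W) and 52.3 (C6W), a log2 ratio at 2 days of −3.91 (−4.27 to −3.53). Ifit1 was at 208, 42.7, 447 and 207 (−2.22, −2.45 to −1.97). Ifit3, which has the near-identical copy Ifit3b, was at 66.8, 11.1, 27.9 and 45.2 (−2.52, −2.94 to −2.07). For these 3 genes C2D lay below both saline libraries, while C6W lay between them for Ifit2 and Ifit3 and level with S2D for Ifit1. With cells thinned to 1000 UMIs, 4 of 10 measured type I genes were lower and the median was −0.62.

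Isg15 was at 812 CPM (S2D), 222 (C2D), 919 (S6W) and 678 (C6W) (log2 ratio at 2 days −1.80, −1.92 to −1.68). Ifih1, the cytoplasmic sensor of long double-stranded RNA, was at 259, 62.9, 379 and 192 (−1.98, −2.19 to −1.76). Oasl1, an oligoadenylate synthetase-like protein, was at 168, 34.9, 229 and 78.5 (−2.19, −2.46 to −1.92). Stat2, part of the type I signal carrier, was lower by the fold criterion as well (−1.58, −2.20 to −0.88). Rsad2, or viperin, which makes a chain-terminating nucleotide, did not pass it (−0.77, −1.04 to −0.48), nor did Irf7, which drives interferon genes (−0.41, −0.85 to 0.05), or Ifitm3 (−0.88). Irf7 was at 57.6 CPM in S2D, 41.2 in C2D and 20.7 in S6W, so that C2D lay between the saline libraries. Bst2, or tetherin, which ties virus particles to the cell, had a log2 ratio of 0.27 (0.10 to 0.44).

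The GTPases of the macrophage-like cells were lower in 1 of 7 measured members (background 5.84%), Igtp (−1.08, −1.78 to −0.29; 0.32 with cells thinned to 1000 UMIs), with a median log2 ratio of −0.44, and Irf1 was at 0.39 (0.05 to 0.75). Of 5 receptor genes measured, 2 were higher (background 9.89%) and 0 lower (background 5.84%). Ifngr2 was among the higher ones (1.38, 0.92 to 1.88), and Ifnar1 had a log2 ratio of 0.74 (0.27 to 1.25). Cxcl10, a chemokine induced by either interferon, was at 1608 CPM (S2D), 602 (C2D), 1454 (S6W) and 1585 (C6W) (−1.35, −1.43 to −1.27). Among 26 further type I target genes that are no members, 18 were measured, 4 lower (background 5.84%) and 0 higher (background 9.89%).

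The macrophage-like cells of C2D were mostly other clusters than those of the remaining libraries, since clusters 1 and 4 held 1130 and 874 C2D cells and at most 2 cells of any other library each. In cluster 8, which all 4 libraries share (80, 286, 130 and 110 cells), C2D was the lowest library for Ifnb1, Ifit1 and Isg15. There Ifnb1 was at 545 CPM (S2D), 69.8 (C2D), 366 (S6W) and 425 (C6W). Ifit1 was at 236, 67.5, 480.5 and 268, and Isg15 at 929, 399, 983 and 871. Genes known to respond to tissue dissociation moved too: 6 of 18 were lower in C2D macrophage-like cells (background 5.84%) and 1 higher (background 9.89%). Their median log2 ratio was −0.58 and their summed level 20920 CPM (S2D), 17309 (C2D), 26710 (S6W) and 18870 (C6W). Their part in the interferon values was not tested.

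Within each library, macrophage-like cells with an Ifnb1 UMI carried more antiviral RNA than those without. The 25 type I genes summed to 4196 against 1320 CPM in S2D, 1496 against 849 in C2D, 4395 against 2262 in S6W and 3551 against 1377 in C6W. Ifit1 was at 401 against 37.1, 113 against 28.9, 636 against 310.0 and 417 against 72.1. The GTPases showed no such order, at 209 against 218, 160.0 against 134, 144 against 186 and 159 against 177. Cells with an Ifnb1 UMI had a higher median depth, at 10314 against 6225 UMIs in S2D, 14528.5 against 14259.5 in C2D, 9746 against 8197 in S6W and 11831 against 9445 in C6W. The C2D cells without an Ifnb1 UMI were lower in Isg15 (184 CPM) than the corresponding cells of S2D (272), S6W (502) and C6W (312).

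**Figure D1:**
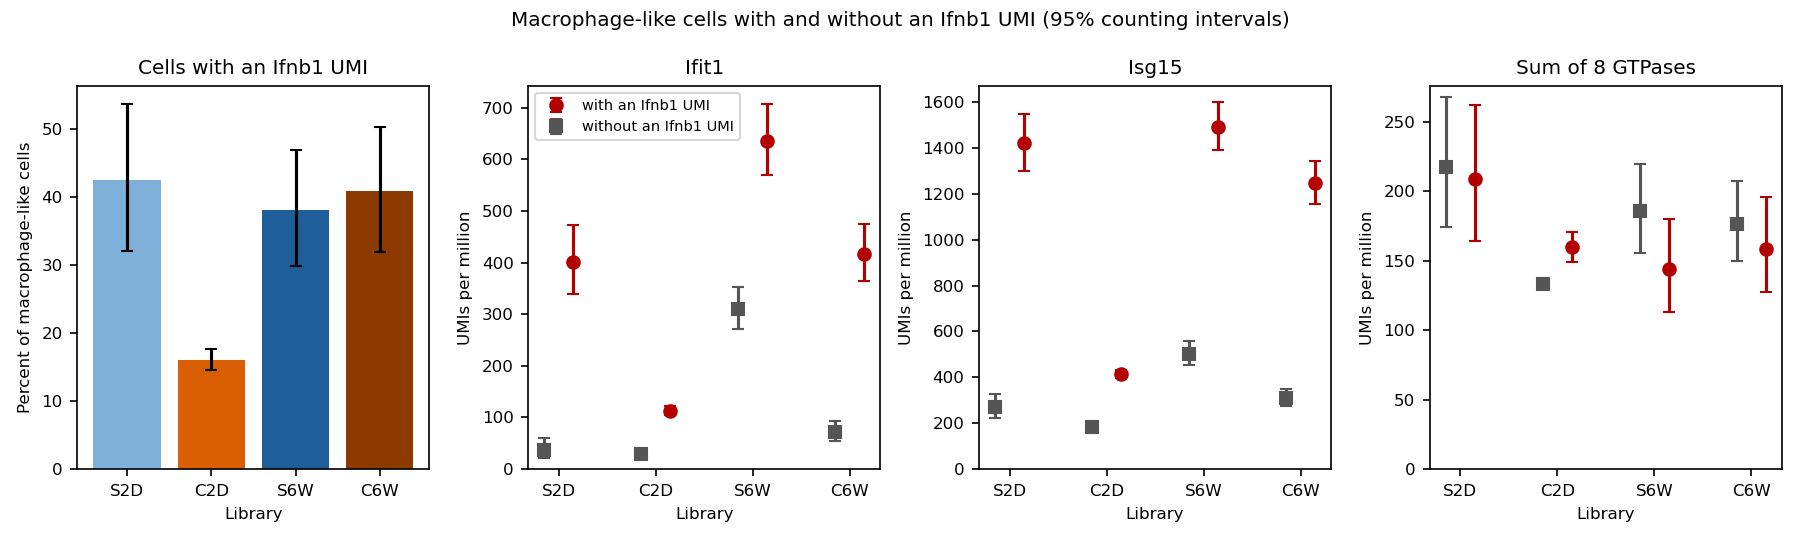
Percent of macrophage-like cells with an Ifnb1 UMI per library with Clopper-Pearson intervals, and levels (CPM) of Ifit1, Isg15 and the summed GTPases in cells with and without an Ifnb1 UMI. The share is 16.1% in C2D and 38.1% to 42.5% elsewhere; Ifit1 and Isg15 are higher in the cells with the UMI in all 4 libraries, and the GTPases are not.

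At 6 weeks the macrophage-like type I genes lay on both sides. Of 26 measured, 2 were higher in C6W than in S6W (background 5.42%) and 4 lower (background 6.93%), with a median log2 ratio of 0.02. The higher ones were Irf7 (1.56, 0.92 to 2.25) and Zbp1, a sensor of left-handed nucleic acid (1.53, 0.61 to 2.55); the lower ones were Oasl1, the dynamin-like GTPase Mx1, Ifit1 and Ifih1, from −1.57 to −1.01. Thinning turned the sign for Irf7 (−0.47) and Mx1 (0.20). The 2 saline libraries also differed, with 2 members higher and 5 lower of 25 in S6W over S2D (background 6.7% and 4.64%). Irf7, for instance, was at 57.6 CPM in S2D, 20.7 in S6W and 62.2 in C6W, and Zbp1 at 43.2, 10.4 and 30.4, so that C6W stood apart from S6W and not from S2D. Of the GTPases, Ifi47 (1.85) and Gbp2 (1.07) were higher and Gbp7 lower (−1.49) of 7 measured, with a median of 0.41. Gbp2 was at −1.80 with thinning. Against S2D, 0 of 7 GTPases were higher or lower in C6W, and the median was −0.56. S6W over S2D had 1 GTPase higher and 2 lower of 6 (background 6.7% and 4.64%). Cxcl9, a chemokine induced mainly by interferon gamma, was higher at 3.29 (2.36 to 4.39).

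T-like cells had higher antiviral genes at 2 days. Of 16 type I genes measured, 9 were higher in C2D and 0 lower (background 3.91% and 4.18%), with a median log2 ratio of 1.08 against 0.01 for all genes. Ifit1 and Ifit3 each had 1 UMI in S2D, 21 in C2D and 8 in C6W, while S6W had 1 for Ifit1 and 0 for Ifit3 (log2 ratio at 2 days 5.24, with a wide interval of 2.61 to 10.6). Ifitm3 was at 8.10 CPM (S2D), 81.4 (C2D), 4.61 (S6W) and 15.8 (C6W) (3.31, 2.32 to 4.45). Isg15 was at 65.6, 146, 76.1 and 48.4 (1.14, 0.70 to 1.58). Rtp4, a chaperone of membrane receptors, had a log2 ratio of 2.34 and Parp14, an ADP-ribosyl transferase, of 1.31. The GTPases had 0 of 6 past the criterion in either direction and Irf1 was at −0.09 (−0.46 to 0.27).

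Much of the T-like type I RNA of C2D lay in a few cells. Counting cells with at least 20 type I UMIs (of the 25 genes) per 10000 UMIs, C2D held 7 of 97 T-like cells (7.22%, 2.95 to 14.3), S2D 3 of 182, S6W 1 of 58 and C6W 2 of 142. The 7 cells held 305 of the 533 type I UMIs of C2D T-like cells (57.2%), from 6 to 20 different members each. The macrophage marker list was also higher in C2D T-like cells, at 3253 CPM against 477 to 780 in the others, with all 17 markers present. In the 7 cells the macrophage markers had a median of 11 UMIs and a maximum of 45, against a median of 5 in the other C2D T-like cells. With doublets removed at the expected rate, the count of higher genes went from 9 of 16 to 3 of 14, and with cells thinned to 1000 UMIs it was 0 of 2.

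**Figure D2:**
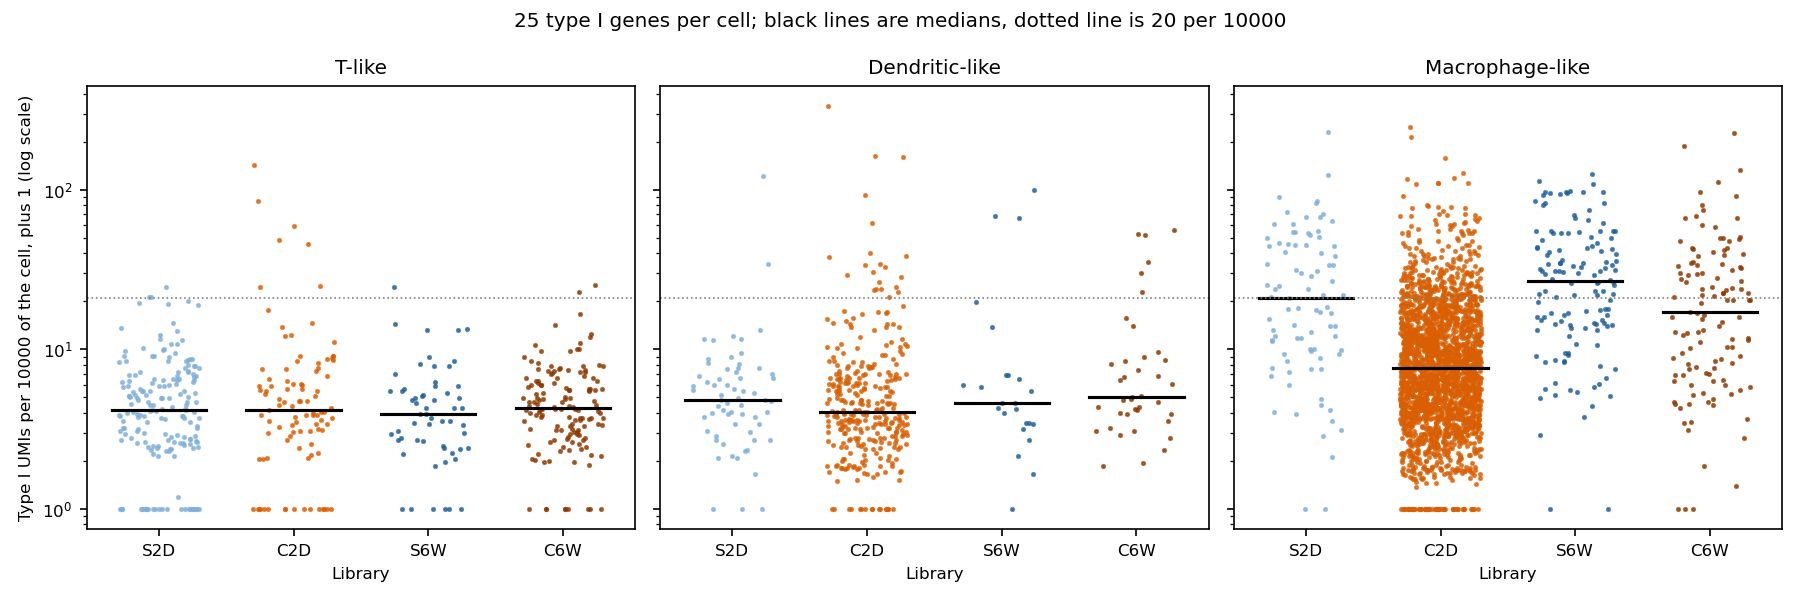
UMIs of 25 type I antiviral genes per 10000 UMIs in each T-, dendritic- and macrophage-like cell, by library; each point is a cell. In C2D most T-like cells lie low and 7 of 97 lie at or above 20, whereas 50.6% of the S2D, 59.7% of the S6W and 45.0% of the C6W macrophage-like cells do, against 284 of 2366 in C2D.

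NK-like cells, with 52 cells in S2D and 55 in C2D, had 1 of 10 measured type I genes higher, Zbp1 (2.82-fold, log2 interval 0.32 to 2.85; background 4.93% higher and 5.62% lower), and 2 C2D cells held 46.1% of the type I UMIs. Ifng was at 431 CPM in S2D and 208 in C2D NK-like cells (−0.97, −1.40 to −0.55), and at 168 (S2D), 275 (C2D), 242 (S6W) and 73.0 (C6W) in T-like cells, with log2 ratios of 0.70 (0.40 to 0.99) at 2 days and −1.65 (−2.08 to −1.22) at 6 weeks. At 6 weeks T-like cells had 2 of 10 measured type I genes higher, Irf9 and Zbp1 (background 2.68% higher, 2.66% lower). Zbp1 was at 1.57 (0.50 to 2.85) over S6W but at 0.58 (0.0005 to 1.17) over S2D. S6W over S2D was at −0.99 (−2.29 to 0.10) for Zbp1. B-like cells had 1 of 12 higher at 6 weeks, Isg15 (1.75, 0.66 to 3.03; background 2.13% higher, 1.58% lower), at 8.45 CPM in S2D, 6.77 in S6W and 22.4 in C6W. With cells thinned to 1000 UMIs its log2 ratio was −0.75.

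In dendritic-like cells most type I genes did not pass the criterion at 2 days, and few GTPases were measured. Of 20 type I genes measured, 2 were higher, Irf7 (1.20, 0.59 to 1.88) and Ifih1 (1.12, 0.35 to 2.00), and 0 lower (background 5.44% and 4.54%), while Mx1 at −0.998 lay just inside the criterion. Of 4 GTPases measured, 3 were lower, and with a minimum of 25 expected UMIs 1 of 1; no difference between the lists was tested. Gbp2, a guanylate-binding protein, had 61 UMIs in S2D (61.3 CPM) and 40 in C2D (8.94 CPM), a log2 ratio of −2.63 (−3.25 to −2.04). Irgm1 (−1.51), Gbp3 (−1.26) and Irf1 (−1.33) lay in the same direction. Cxcl9 was lower (−3.04, −3.46 to −2.64) and Cxcl10 higher (1.51, 1.23 to 1.80). Reads of the Gbp genes can be split among close copies, so their single values are uncertain.

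**Figure D3:**
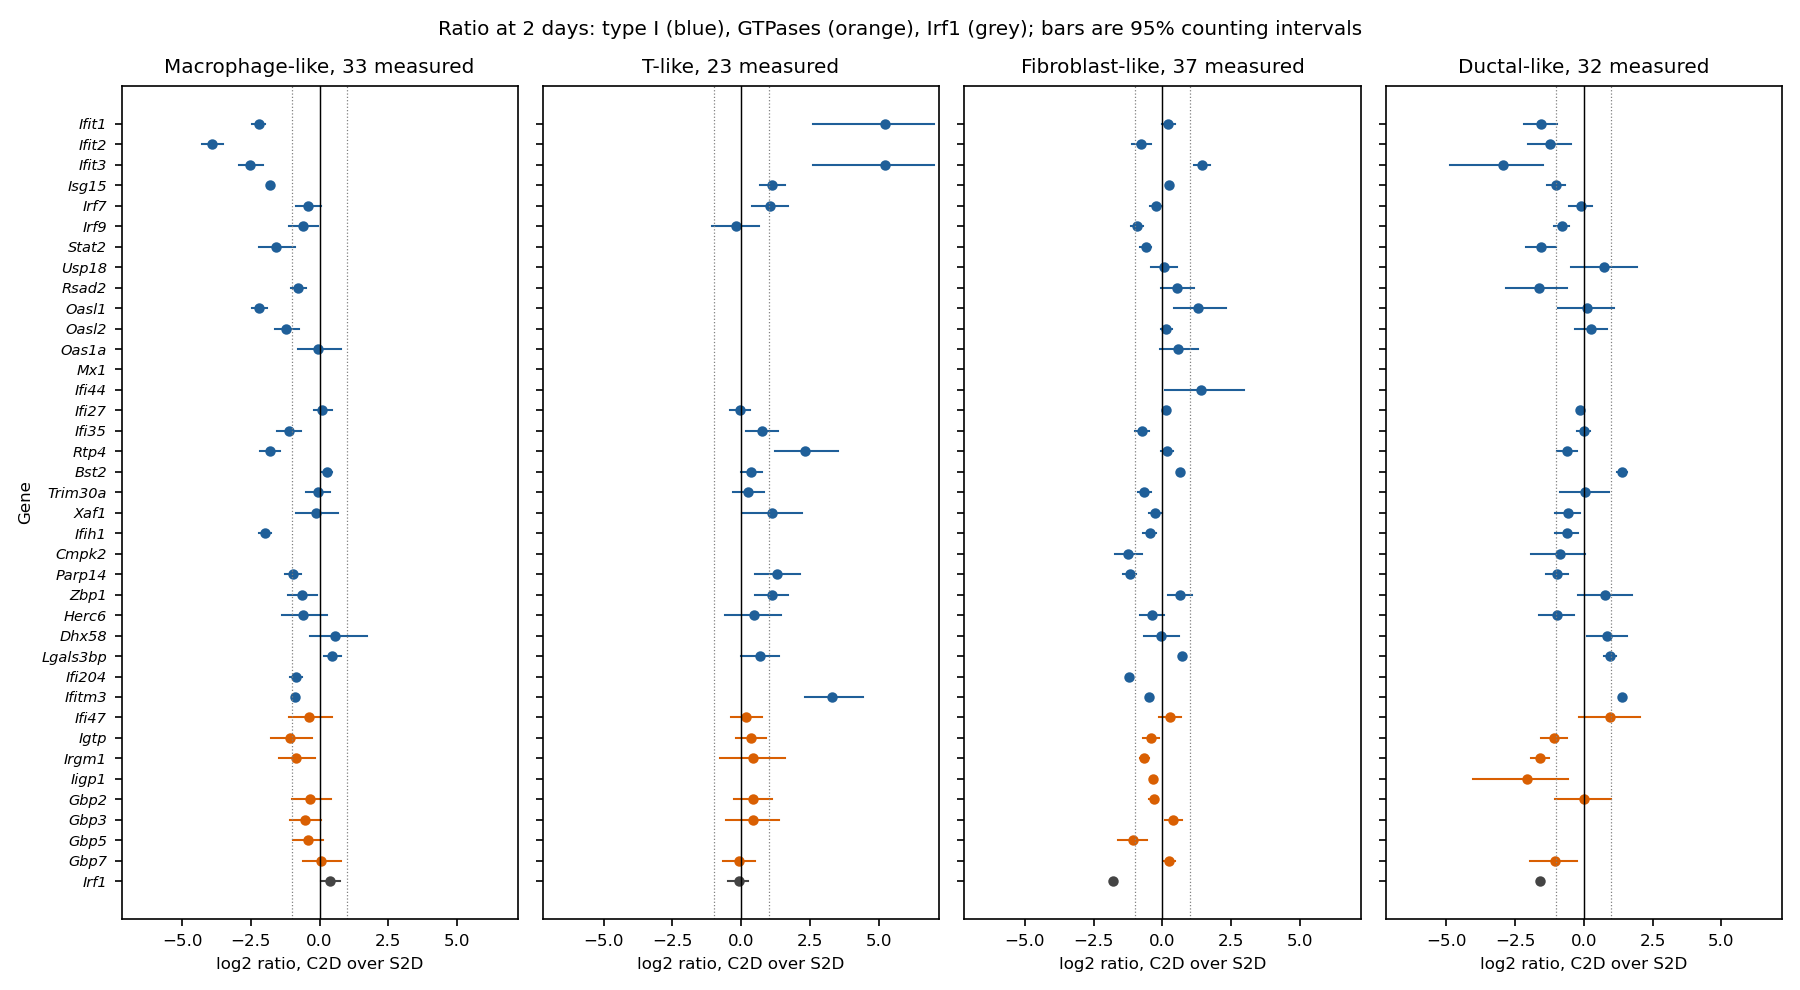
Log2 ratio of C2D over S2D, with 95% counting intervals, for the members measured in macrophage-, T-, fibroblast- and ductal-like cells; bars that reach the edge run past it. The type I genes lie mostly below 0 in macrophage-like cells (median −0.87) and mostly above 0 in T-like cells (median 1.08), and sit around 0 in fibroblast-like cells.

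Fibroblast-like cells, with 587 to 1110 cells per library, had type I counts near those of all genes at 2 days. Of 28 measured, 3 were higher (background 11.2%) and 3 lower (background 8.24%), with a median log2 ratio of 0.00, so the counts are no result about the list. Ifit3 was at 16.5 CPM (S2D), 41.1 (C2D), 10.7 (S6W) and 21.3 (C6W) (log2 ratio at 2 days 1.43, 1.15 to 1.73). Ifi44 (1.40, 0.09 to 2.96; −1.30 with thinning) and Oasl1 (1.31, 0.42 to 2.30) were also higher. Ifi204, a DNA sensor with close paralogs that can share its reads, was at 383, 153, 354 and 412 (−1.21, −1.29 to −1.12). Cmpk2, a mitochondrial nucleotide kinase next to Rsad2 (−1.24; 0.054 in clusters that several libraries share), and Parp14 (−1.20) were lower too. Isg15 was at 112, 122, 89.9 and 131 (0.23, 0.11 to 0.35), so that the 2-day libraries were close. Restricted to clusters that several libraries share, the median log2 ratio was −0.47, with 1 higher and 5 lower of 18. Of the GTPases, Gbp5 was lower (−1.07) of 8 measured.

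At 6 weeks fibroblast-like cells of C6W stood above those of S6W in both kinds of members. Of 27 type I genes measured, 25 had a log2 ratio above 0, 5 were higher and 0 lower (background 1.8% and 1.49%), with a median of 0.46 (all genes 0.02). Ifit1 was at 32.4 CPM (S2D), 34.7 (C2D), 21.2 (S6W) and 48.7 (C6W) (1.33, 1.11 to 1.57). Usp18 was at 8.51, 8.10, 4.80 and 10.8 (1.31, 0.83 to 1.82), and Rsad2 at 4.73, 6.35, 1.33 and 3.61 (1.58, 0.67 to 2.59; −0.44 with thinning). The other 2 were Oas1a, an oligoadenylate synthetase whose reads may be split with Oas1g (1.32), and Ifit3 (1.12). All 8 GTPases were measured and all 8 had a log2 ratio above 0, with a median of 0.73. Iigp1 was at 285, 206, 179 and 421 CPM (1.37, 1.29 to 1.45), and Ifi47 at 11.3, 12.6, 10.5 and 19.4 (1.02, 0.68 to 1.36).

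The size of that difference depended on the saline library. Against S2D, 0 of 27 type I genes were higher or lower in C6W (background 1.47% and 2.05%), and the median log2 ratio was 0.19. Ifit1 was then at 0.73 (0.51 to 0.95), Iigp1 at 0.70 (0.63 to 0.78) and Rsad2 at −0.25 (−0.91 to 0.42). S6W itself was below S2D, with a median of −0.40 over the type I genes, 0 of 27 higher (background 1.46%) and 1 lower, Rsad2 (−1.83, −2.87 to −0.87; background 1.97%). C6W was thus above both saline libraries for Ifit1, Iigp1 and Ifi47, and between them for Rsad2. Cxcl9 was at 5.67 CPM (S2D), 25.03 (C2D), 13.3 (S6W) and 29.9 (C6W). Of 14 further interferon gamma targets outside the members, 8 were measured at 6 weeks and 3 were higher over S6W (background 1.8%), and 1 of 7 was higher over S2D (background 1.47%). The dissociation list had 0 of 18 past the criterion at 6 weeks, with 16 of 18 above 0 and a median of 0.32. Its median was −0.06 against S2D and −0.27 for S6W over S2D. The summed macrophage markers of the fibroblast-like cells were lower in C6W (1043 CPM) than in S6W (2003). The part of dissociation or of macrophage RNA in the member values was not tested.

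Ductal-like cells had low levels of the members, and at 2 days more of them were lower than higher. In C2D against S2D 6 of 25 type I genes were lower (background 6.96%) and 2 higher (background 8.88%), with a median of −0.59. The 2 higher genes were the membrane proteins Ifitm3, at 301 CPM (S2D), 730 (C2D), 262 (S6W) and 451 (C6W) (1.40, 1.32 to 1.48), and Bst2, at 60.9, 145, 57.4 and 96.1 (1.38, 1.20 to 1.56). Ifit3 had 55 UMIs (S2D), 4 (C2D), 3 (S6W) and 63 (C6W) (−2.94, −4.87 to −1.51). Ifit1 was at 21.01, 6.56, 3.69 and 28.3 CPM (−1.55, −2.19 to −0.96), and Isg15 at 53.0, 23.9, 40.2 and 79.6 (−1.02, −1.36 to −0.70). S6W, the other saline library, was as low as C2D for Ifit1 and Ifit3, and between S2D and C2D for Isg15. Of 6 GTPases measured, 4 were lower; Irgm1 was at 75.7, 23.0, 61.1 and 116 (−1.60, −1.92 to −1.28) and Iigp1 had 30, 4, 0 and 48 UMIs, the 0 of S6W allowing up to 1.23 CPM. With cells thinned to 1000 UMIs, 3 type I genes were measured, 0 of them lower, and the median was 0.83. Ifit3 (1.17), Ifit2 (0.30), Iigp1 (2.17) and Gbp7 (1.59) turned sign, as values without a minimum that can be bounds.

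At 6 weeks 6 of 21 type I genes were higher in ductal-like cells of C6W over S6W and 0 lower (background 1.09% and 0.466%). Of the 21, 20 had a log2 ratio above 0, with a median of 0.75 (all genes 0.01). Ifit3 (3.05, 1.43 to 5.36) and Ifit1 (2.95, 1.99 to 4.10) had the largest ratios, resting on 3 and 9 UMIs in S6W; with a minimum of 25 expected UMIs 2 genes were higher. Oasl2 (2.46), Oasl1 (2.21), the ubiquitin ligase Trim30a (1.24) and Rtp4 (1.21) followed. With cells thinned to 1000 UMIs 1 of 6 measured type I genes was higher, and Oasl2 (−0.28), Oasl1 (−1.86) and Trim30a (−0.54) turned sign. The thinned values of single genes had no minimum of expected UMIs and can be bounds. Isg15 lay just under the criterion at 0.999 (0.68 to 1.33). Of 4 GTPases measured, Gbp7 was higher (1.73, 0.86 to 2.73; −0.54 with thinning) and Irgm1 had 0.93 (0.68 to 1.20). Against S2D, 2 of 26 were higher (background 1.44%) and 0 lower (background 1.13%), with a median of 0.41; Ifit1 was at 0.45 (0.12 to 0.77) and Ifit3 at 0.37 (−0.17 to 0.92). S6W was below S2D for both, at −2.51 (−3.66 to −1.54) and −2.67 (−4.99 to −1.05), in a comparison with 4 of 21 type I genes lower (background 1.29%) and 0 higher (background 0.657%). C6W was therefore the highest of the 4 libraries for Ifit1, Isg15 and Irgm1, while the large ratios of the Ifit genes at 6 weeks rested on low values in S6W. Per cell, the 25 narrower type I genes had medians of 3.15 (S2D), 2.37 (C2D), 2.82 (S6W) and 3.47 (C6W) UMIs per 10000. The highest single cells reached 258, 16.5, 22.4 and 117 in the same order. How far the ductal-like ratios at either time rest on such cells was not tested.

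**Figure D4:**
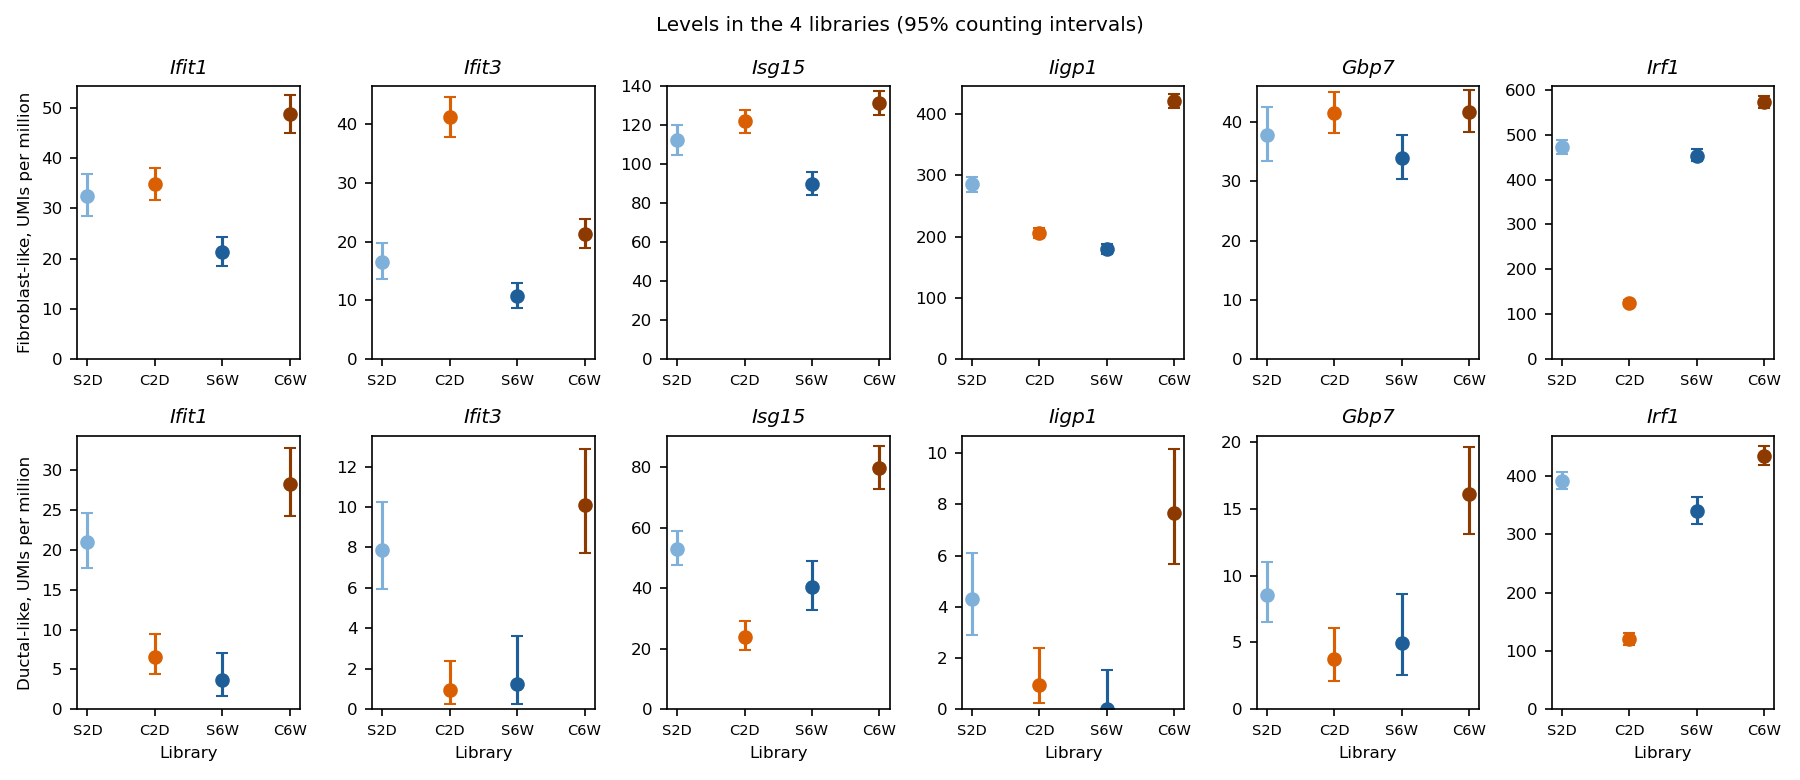
Levels (CPM) of Ifit1, Ifit3, Isg15, Iigp1, Gbp7 and Irf1 in fibroblast-like and ductal-like cells of the 4 libraries, with 95% Poisson intervals. Irf1 is lowest in C2D in both classes, at 125 and 120.0, and Ifit1 of ductal-like cells is low in both C2D and S6W.

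Irf1 was lower at 2 days in 4 classes, in 1 of which (acinar-like) this rested on the scaling, and it did not pass the criterion in the macrophage-, T- and NK-like cells. In fibroblast-like cells it was at 472 CPM (S2D), 125 (C2D), 453 (S6W) and 572 (C6W) (log2 ratio at 2 days −1.81, −1.89 to −1.72). In ductal-like cells it was at 392, 120.0, 340.0 and 435 (−1.58, −1.72 to −1.45), and in dendritic-like cells at 83.4, 29.9, 49.9 and 52.3 (−1.33, −1.74 to −0.92). C2D was the lowest of the 4 libraries in each of these. T-like cells were at 152, 145, 159 and 118, with overlapping intervals at 2 days. Irf1 is also an early response gene, and the dissociation list had a median log2 ratio of −0.76 in fibroblast-like, −0.50 in ductal-like, 0.28 in dendritic-like and −0.80 in T-like cells; its part was not tested. Ifngr1, the ligand-binding chain of the interferon gamma receptor, was lower in C2D fibroblast-like cells (−1.61, −1.71 to −1.51).

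In acinar-like cells 5 members were measured: Ifi27, Bst2, Lgals3bp, Ifitm3 and Irf1. Ifitm3 was at 24.7 CPM (S2D), 356 (C2D), 26.5 (S6W) and 43.4 (C6W), with C2D far above the rest, and was higher at 2 days (2.24, 1.99 to 2.50; background 16.6% higher and 11.8% lower). Scaling by TMM moved the log2 ratios of all genes by −1.61 at 2 days and −0.51 at 6 weeks relative to plain CPM. Irf1 shows this: its levels of 5.53 in S2D and 5.43 in C2D were nearly equal, yet its log2 ratio was −1.63 (−2.38 to −0.87), and it was 0.18 with free RNA subtracted and 0.035 with thinning. At 6 weeks its levels were 2.88 in S6W and 9.25 in C6W (1.17, 0.35 to 2.02; background 4.06% higher and 4.48% lower). None of the 8 GTPases and none of the 25 narrower type I genes reached the minimum in acinar-like cells.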

How the data were processed

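Per the labels' protocols, viable sorted pancreas cells were run as droplet libraries, and the deposited matrices hold raw UMI counts per gene and barcode. Cell Ranger 3.0.2 and the build mm10 are named in the submitters' processing notes. The members and gene lists were chosen with earlier results of these data known.

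Barcodes under 500 UMIs or 200 genes, or above 20% mitochondrial UMIs, were dropped, and doublets called by Scrublet (38, 19, 15 and 32 in S2D, C2D, S6W and C6W) were removed; 0.8% per 1000 barcodes was the expected rate. Cells were clustered with scanpy 1.11.5 (2000 variable genes without members or pathway genes, 40 components, 15 neighbours, Leiden resolution 1, no integration) into 33 clusters; 452 of 12703 cells stayed unnamed. UMIs were summed per class and library. Classes of at least 50 cells in both libraries were compared and levels were given from 20 cells. Ratios used TMM factors of edgeR 4.0.16 in R 4.3.3, with exact conditional binomial intervals; levels have exact Poisson intervals. A count of 0 is given as allowing up to 3 counts, a bound below the upper end of its exact Poisson interval. In ratios a count of 0 was set to 3 counts. Intervals cover counting error only. In each comparison up to 6 highest and 6 lowest members past the criterion were named, besides 16 members fixed by name. The ratio script was tested on simulated data. Alternatives were other scalings (DESeq2 1.42.0 size factors, plain CPM, totals without digestive genes), minima, cell filters, doublet rules, clusterings, thinning to 1000 UMIs, free RNA subtraction and the other saline library. Restriction to clusters under 90% from 1 library was chosen after seeing the data.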

Additional observations from a re-analysis of the deposited data

Results flagged for a closer look

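For 4 genes the log2 ratio of caerulein over saline had opposite signs, past the 2-fold criterion, at 2 days and at 6 weeks; with 1 library per group this difference was not tested. In ductal-like cells Ifit3 went from −2.94 at 2 days to 3.05 at 6 weeks, a difference of 5.99. Ifit1 in the same cells went from −1.55 to 2.95, a difference of 4.51, and Gbp7 from −1.07 to 1.73, a difference of 2.80. With cells thinned to 1000 UMIs Gbp7 had the opposite signs, 1.59 and −0.54, and Ifit3 was at 1.17 at 2 days. These thinned values had no minimum of expected UMIs and can be bounds. Irf1 in acinar-like cells went from −1.63 to 1.17, a difference of 2.80, on levels of 2.88 to 9.25 CPM. The direction at 2 days rested on the scaling: S2D and C2D had 5.53 and 5.43 CPM, and the log2 ratio was 0.18 with free RNA subtracted and 0.035 with thinning. The 2 saline libraries differed by −2.67 for Ifit3 and −2.51 for Ifit1 in ductal-like cells (S6W over S2D), beside which these differences have to be read.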

How the results depend on the processing

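With 1 library per group no replicate could be left out. No paired analysis was possible because each group has 1 library. Of 16 planned list medians 14 had a value: no GTPase was measured in acinar-like cells. Over all alternatives 192 values of these medians stayed within the main value's interval and 11 moved. The acinar-like type I median at 2 days (0.51) was 1.93 with plain CPM, −0.49 with no minimum and 2.32 with thinned cells, and at 6 weeks (0.26) 0.78 with plain CPM. Thinning gave 0.83 for the ductal-like type I median at 2 days (3 genes measured) and −0.62 for the macrophage-like one (10 measured). The fibroblast-like GTPase median at 2 days (−0.34) was −0.47 without digestive genes in the totals and 0.20 in shared clusters, where the type I median was −0.47. Against S2D, the 6-week medians were 0.19 for fibroblast-like type I genes and −0.56 for macrophage-like GTPases (0.41 against S6W).

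Thinning turned the sign of 18 gene values. They were Irf1 in acinar-like cells at 2 days (0.035), Isg15 in B-like cells at 6 weeks (−0.75) and Irf7 in T-like cells at 2 days (−0.71). In ductal-like cells they were Gbp7 (1.59), Iigp1 (2.17), Ifit2 (0.30) and Ifit3 (1.17) at 2 days, and Gbp7 (−0.54), Oasl2 (−0.28), Oasl1 (−1.86) and Trim30a (−0.54) at 6 weeks. In fibroblast-like cells they were Ifi44 at 2 days (−1.30) and Rsad2 at 6 weeks (−0.44). In macrophage-like cells they were Oasl2 (0.54) and Igtp (0.32) at 2 days, and Gbp2 (−1.80), Irf7 (−0.47) and Mx1 (0.20) at 6 weeks. Irf1 in acinar-like cells was 0.18 with free RNA subtracted, Cmpk2 in fibroblast-like cells 0.054 in shared clusters, and against S2D Rsad2 in fibroblast-like (−0.25) and Zbp1 in macrophage-like cells (−0.52) turned at 6 weeks. The cause was not tested. Thinned gene values had no minimum of expected UMIs, and a count of 0 was set to 3 counts. A thinned value can therefore be a bound, and its sign is then uncertain.

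Counts of higher or lower members moved by over 1.5 times in several settings. The T-like count of higher type I genes at 2 days (9) was 4 with a minimum of 25, 15 with none, 3 with doublets left out at the expected rate and 0 of 2 with thinning. The macrophage-like count of lower genes (10) was 4 of 10 with thinning, and the ductal-like one (6) 0 of 3. The 6-week ductal-like count (6 higher) was 2 with a minimum of 25 and 1 with thinning, and the fibroblast-like one (5) 2 with thinning. The ductal-like GTPases at 2 days (4 lower) were 2 with a minimum of 25 and 2 with free RNA subtracted, and the dendritic-like ones (3 lower) were 1 of 1 with a minimum of 25. With no minimum, type I counts became 3 higher in B-like (1), 4 higher in macrophage-like (2), 6 higher and 4 lower in T-like (2 and 0) and 7 higher and 4 lower in acinar-like cells (0 and 0) at 6 weeks. At 2 days they became 5 higher in dendritic-like (2), 8 higher and 5 lower in NK-like (1 and 0), 3 higher and 11 lower in acinar-like (1 and 0) and 4 higher in ductal-like cells (2). A minimum of 5 gave 5 higher in dendritic-like and 5 in NK-like cells, and 3 higher ductal-like GTPases at 6 weeks (1; 4 with no minimum). Free RNA subtraction gave 4 higher in dendritic-like and in ductal-like cells at 2 days, and plain CPM 6 higher in acinar-like cells. In fibroblast-like cells at 2 days (3 and 3), 1 was higher with a minimum of 25, with thinning and in shared clusters, where 5 were lower. The 6-week macrophage-like lower count (4) was 0 with thinning and 2 against S2D; against S2D the higher counts were 2 in ductal-like and 0 in fibroblast-like cells. The other counts that moved were of at most 2 members and moved by at most 2.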

Other observations

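Plasmacytoid dendritic-like cells, a cell type known as a strong source of type I interferon, were present as 23 cells in C2D. Bst2, one of their known surface markers, was at 4400.0 CPM (4130.0 to 4683) and Irf7 at 138 (93.7 to 196). Isg15, Ifit1 and Ifnb1 had 0 UMIs there. The 3 counts that a 0 allows are 13.3 CPM, and the exact Poisson interval reached 16.4 CPM.

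Mural-like cells, of which S2D held 23 and C2D 24, had Ifitm3 at 680.0 CPM in S2D (576 to 797) and 2988 in C2D (2794 to 3193). Bst2 was at 22.4 (7.26 to 52.2) and 225 (174 to 286), and the 25 narrower type I genes summed to 412 and 1118. Isg15 alone made up 179 and 705 CPM of these sums. The macrophage marker list was at 219 CPM in S2D and 5238 in C2D, with 7 and 15 of 17 markers present. Its part in the mural-like values was not tested. These classes lay under the minimum of 50 cells, and no ratio was taken.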
